A study of Mus musculus with 6 samples.

Results

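Translation initiation factors and 4E-binding proteins were followed in mouse left ventricle as all genes whose array symbol starts with Eif. The members were the probe sets that carry a single gene symbol of that kind on the platform's annotation. This rule uses no measured value, but it was chosen with earlier results of these data known. They were 58 probe sets of 28944 on the array, and they named 49 genes of the 19938 that have a probe set with a single symbol. Of these genes, 48 were bright enough to be tested, among 10547 genes tested in all, and 55 of the 58 probe sets were bright. Bright here means a mean over the 6 arrays at or above 4.345, the median of all probe sets on the log2 scale. The gene below it was Eif4a3l1, a relative of the helicase gene Eif4a3, at a log2 signal of 2.55, 2.81 and 2.43 on the 2MT arrays and 3.11, 2.36 and 3.06 on the saline arrays. Eif1, Eif2s1, Eif3g and Eif4g1 are not analysed here, and Eif3j1, Eif3j2 and Eif4ebp3 lie only on probe sets that carry several symbols, to which no gene is assigned.

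The 2MT group was male C57BL/6 mice of 10 weeks given 2-methyl-2-thiazoline (2MT), a small thiazoline compound, at 50 mg/kg under the skin, with hearts taken after 4 h. Its control was a group of the same strain, sex and age labelled saline, with 3 arrays in each group and 1 array per sample. The labels repeat the 2MT injection for all samples, so the dose and time of the saline group are not given separately, and the group comes from the treatment label. Nothing in them states whether the arrays come from different animals. The p-values below thus set the group difference only against the variation between these samples within a group, and that variation may be technical.

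Initiation is the step at which the small ribosomal subunit finds the start codon of an mRNA, and it is the most regulated step of protein synthesis. eIF2 brings the initiator tRNA to the small subunit, eIF3 is the large scaffold that holds the complex together, and eIF1, eIF1A and eIF5 govern the choice of start codon. The cap-binding complex eIF4F recruits the mRNA through eIF4E, and the 4E-binding proteins hold eIF4E back until the kinase mTORC1 phosphorylates them. Kinases that phosphorylate eIF2 alpha under stress lower initiation by blocking eIF2B, the exchange factor that reloads eIF2 with GTP. Most of this control acts on proteins and their phosphorylation, which arrays of mRNA do not measure.

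As a check of the tissue, all 9 cardiomyocyte markers were tested, their mean log2 signal ran between 12.25 and 12.29 on all 6 arrays, and none was called. Of 8 lymphocyte markers none was bright. Of 8 endothelial and 8 macrophage markers, 1 each fell in 2MT hearts, Pecam1 by 0.33 and Fcgr3 by 0.53 on the log2 scale. In each of these lists 4 of the 8 means were higher in 2MT hearts and 4 lower, and the median log2 difference was 0.03 for endothelial and -0.01 for macrophage markers. The highest endothelial differences were Kdr at 0.24 and Emcn at 0.20, with limma adjusted p-values of 0.157 and 0.161. The mean of the 3 erythrocyte markers that were bright, of 10 listed, was 6.24, 6.10 and 6.14 on the 2MT arrays and 6.09, 6.03 and 6.88 on the saline arrays, so saline 3 stood apart. Most of this came through Alas2, which read 5.15 to 5.76 on the other arrays and 7.07 on saline 3. That array also stood apart on the second principal component of the genes tested (17.7% of the variance), at -11.6 against -1.12 to 4.65 on the others, and values without it are given below where they alter a call. Of 4 atrial markers 2 were bright. Their mean was 7.66, 7.68 and 7.62 on the 2MT arrays and 7.62, 8.19 and 7.84 on the saline arrays, and saline 2 was high through Myl4, at 6.47 against 4.80 to 5.13 on the other arrays. The part of these differences in the results was not tested. In bulk tissue, fewer cells of a type and less RNA per cell cannot be told apart.

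Of the 48 Eif genes, 2 rose in 2MT hearts and none fell, and both calls rest on a probe set whose place on the array does not match the gene. The 2 were Eif4e, the cap-binding subunit of eIF4F, and Eif5a, the hypusine-bearing factor that helps ribosomes through difficult stretches. Called means an adjusted p under 0.05 in limma, with Benjamini-Hochberg adjustment over all 10547 genes. The share of Eif genes called was 4.17%, against 4.63% of all genes tested (488 genes), and 2.22% of all genes rose. At an unadjusted p under 0.05 there were 11 Eif genes, 22.9% of those tested, of which 7 were higher and 4 lower in 2MT hearts, against 17.8% of all genes. The 2MT and saline arrays did not overlap for 16 Eif genes (33.3%), 9 higher and 7 lower in 2MT, against 21.1% of all genes. Mean signal was lower in 2MT hearts for 30 of 48 Eif genes (62.5%) and for 48.1% of all genes. The median log2 difference was -0.02 for Eif genes and 0.003 for all genes tested, and the Eif differences ran from -0.35 to 0.39. The median size of the difference, 0.095 for Eif genes against 0.087 for all genes, lay above the median SD between replicates of Eif genes, which was 0.057 in 2MT hearts and 0.076 in saline hearts. For all genes tested the median SD was 0.081 in 2MT hearts and 0.095 in saline hearts.

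**Figure D1:**
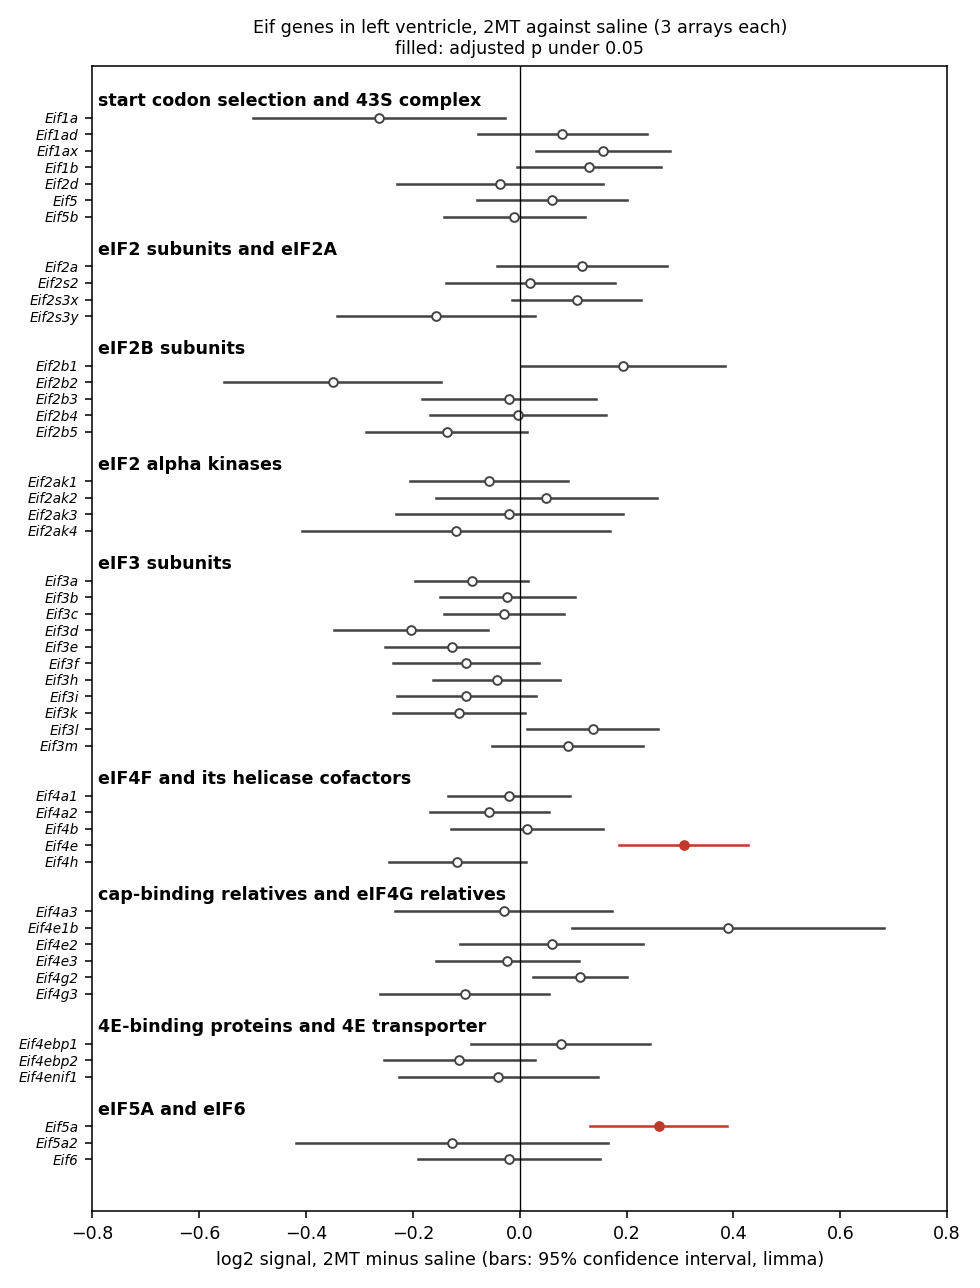
The difference in log2 signal, 2MT minus saline, on the horizontal axis for each of the 48 tested Eif genes, ordered by role, with 95% confidence intervals from limma (3 arrays per group). Eif4e at 0.31 and Eif5a at 0.26 are the filled points, called at an adjusted p under 0.05, and most other intervals cross 0.

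Eif4e shows how the call depends on the probe set. The gene lies on chromosome 3 and has 3 bright probe sets. The brightest, probe set 10599855, represents the gene in the fit. It read 8.65, 8.65 and 8.69 on the 2MT arrays and 8.34, 8.29 and 8.44 on the saline arrays. All 2MT arrays lay above all saline arrays, at 8.66 ± 0.02 in 2MT hearts and 8.36 ± 0.08 in saline hearts (SD, n = 3 each), a log2 difference of 0.31 ± 0.056 (SE) and a 1.24-fold higher signal. The 95% confidence interval was 0.19 to 0.43 and the limma adjusted p was 0.0058. The call held in each fit that left out 1 array, with adjusted p-values between 0.0033 and 0.044.

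The other bright Eif4e probe sets were not called. Probe set 10496485 read 6.09, 6.12 and 6.21 on the 2MT arrays and 6.03, 6.09 and 5.97 on the saline arrays, with groups that overlap, a log2 difference of 0.11 and a limma adjusted p of 0.496. Probe set 10496490 read 4.68, 4.57 and 4.63 on the 2MT arrays and 4.88, 4.71 and 4.65 on the saline arrays, a log2 difference of -0.12 and a limma adjusted p of 0.607. These come from a fit of each of 14480 bright probe sets on its own, in which 2.90% of all probe sets and 2 of the 55 bright Eif probe sets were called, and there 10599855 kept its call at 0.0154.

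Eif5a gave the same picture. The gene lies on chromosome 11 and is represented by probe set 10523058, which read 8.70, 8.67 and 8.70 on the 2MT arrays and 8.37, 8.37 and 8.55 on the saline arrays. The groups lay apart, at 8.69 ± 0.02 in 2MT hearts and 8.43 ± 0.10 in saline hearts (SD, n = 3 each). The log2 difference was 0.26 ± 0.060 (SE), with a 95% confidence interval of 0.13 to 0.39, a 1.20-fold higher signal and a limma adjusted p of 0.0224. The call was lost, at adjusted p-values between 0.0695 and 0.104, in every fit that left out 1 array other than saline 3. The other bright probe set, 10387733, read 7.55, 7.53 and 7.46 on the 2MT arrays and 7.41, 7.55 and 7.48 on the saline arrays. Those groups overlap, with a log2 difference of 0.03 and a limma adjusted p of 0.845.

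**Figure D2:**
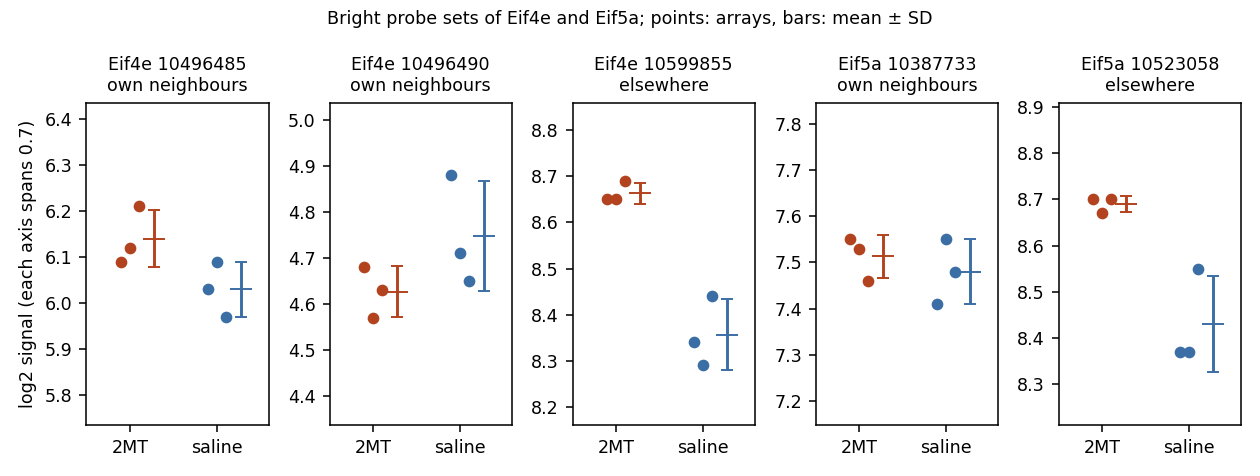
Log2 signal of each bright probe set of Eif4e and Eif5a, with 2MT left of saline, points for single arrays and bars for the mean ± SD (n = 3 each); each vertical axis spans 0.7. Probe sets 10599855 and 10523058, marked elsewhere, have separate groups, while the 3 probe sets numbered among their gene's own neighbours overlap between groups.

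Probe set numbers on this array follow the order of genes along the chromosomes, which gives each probe set a place. A probe set was said to lie among its gene's own neighbours if any of the 10 nearest named probe sets on either side belongs to one of the 10 nearest genes on either side of its gene in RefSeq (GRCm38.p6). This check was chosen after the values were seen. By it, 20886 of 21698 probe sets with a single symbol (96.3%) lay among their gene's own neighbours, as did 99.9% of those that are their gene's only such probe set, and 50 of the 58 Eif probe sets (86.2%).

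Both called probe sets lay elsewhere. Eif4e probe set 10599855 had 18 of its 20 nearest named probe sets on the X chromosome and shared no neighbour with Eif4e. The probe sets 10496485 and 10496490 each lay among 14 of its neighbours, such as Adh5 and Tspan5. Eif5a probe set 10523058 had all 20 on chromosome 5, whereas 10387733 lay among 9 neighbours of Eif5a, such as Acadvl and Slc2a4. When each gene was represented by a probe set among its own neighbours, none of the 47 Eif genes then tested was called in limma. The limma adjusted p was then 0.505 for Eif4e and 0.854 for Eif5a. Of these 47 genes, 8 had an unadjusted p under 0.05. In the main fit 11 of 48 had one (22.9%), against 17.8% of all genes. Over all genes, those represented by a probe set elsewhere were called about as often as the rest, 11 of 262 (4.20%) against 477 of 10272 (4.64%). Among Eif genes the counts were 2 of 5 and 0 of 43. Which transcript the 2 called probe sets measure was not tested, since no probe sequence was used, and signal from a near-identical copy elsewhere in the genome cannot be told apart from that of the named gene.

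Whether the log2 difference itself differs between probe sets of a gene could not be shown at this size. Relative to 10599855 it was lower on 10496485 (-0.20) and on 10496490 (-0.43), and for Eif5a it was -0.23 for 10387733 minus 10523058. The Eif4e probe sets among the gene's own neighbours also differed from each other, by 0.23 for 10496485 minus 10496490. For each the exact two-sided permutation p was 0.1, the smallest that 3 arrays against 3 allow, and 0.225 after adjustment over the 9 pairs compared. The 3 bright Eif4a1 probe sets, only 1 of which lies among that gene's neighbours, differed by no more than 0.003 in their log2 difference.

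The promoters of both genes' annotated loci are shown because both hold the E-box CACGTG, the recognition sequence of Myc and related factors. They are the 250 bases before a RefSeq start (GRCm38.p6), 5′ to 3′ on the gene's strand, with each E-box in capitals. The first is Eif4e at chr3:138527018-138527267 on the plus strand, with E-boxes that begin at -228 and -64 relative to the start, and the second is Eif5a at chr11:69921387-69921636 on the minus strand, with 1 at -74. Other RefSeq starts are listed for both genes, and among these each gene has a start whose 250 bases hold no E-box.
Eif4e: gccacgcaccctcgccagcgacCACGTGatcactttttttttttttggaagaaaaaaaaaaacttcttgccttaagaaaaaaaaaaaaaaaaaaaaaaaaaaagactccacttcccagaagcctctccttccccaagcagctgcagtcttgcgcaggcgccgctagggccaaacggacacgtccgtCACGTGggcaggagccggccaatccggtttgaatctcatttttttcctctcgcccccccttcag
Eif5a: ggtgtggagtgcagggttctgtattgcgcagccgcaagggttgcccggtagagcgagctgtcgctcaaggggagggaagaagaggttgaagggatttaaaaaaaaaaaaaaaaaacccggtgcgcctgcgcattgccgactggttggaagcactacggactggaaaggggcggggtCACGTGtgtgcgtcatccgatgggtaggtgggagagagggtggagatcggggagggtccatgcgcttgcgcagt

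The called probe sets have their numbers elsewhere, so these promoters belong to the genes named by the annotation and not to a place shown for the called signal. Of the 48 tested Eif genes, 38 matched a RefSeq window of 250 bases before to 50 after a start. Over all starts listed for a gene, CACGTG (its own reverse complement) stood in 9 of the 38 (23.7%) and in 12.0% of 8460 tested genes with a window. The 9 were Eif1b, Eif3a, Eif3f, Eif3k, Eif4a1, Eif4e, Eif4h, Eif5a and Eif5a2. Their signal was higher in 2MT hearts for 3 and lower for 6, with a median log2 difference of -0.09, against 12 higher and 17 lower and a median of -0.02 for the 29 Eif genes without it.

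Other motifs were searched on both strands of the same windows. TGANNNNGC, the core of the antioxidant response element bound by NRF2, stood in 12 of the 38 Eif genes (31.6%) and in 47.7% of all genes. TGATGNAA, an element bound by ATF4 with its partners, stood in 1 (2.63%) against 2.68%. CCAAT, the CCAAT box, stood in 14 (36.8%) against 42.3%, and TATAAA, the TATA box, in 3 (7.89%) against 9.01%. No overlap between these motifs was removed. The windows' median GC content was 62.3% for Eif genes and 61.3% for all genes. These matches describe the letters of the windows and not bound sites.

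A C at the start followed by a run of pyrimidines is the mark of mRNAs whose translation mTORC1 controls through LARP1, best known in ribosomal proteins and elongation factors. On the transcribed strand only, a run of at least 5 pyrimidines from a C at an annotated start was found in 2 of 38 Eif genes (5.26%), against 3.05% of all genes. The first 25 transcribed bases of both are printed with the run, 11 bases long in each, in capitals. Eif3f lies at chr7:108934415-108934439 on the plus strand and Eif2s3x at chrX:94212627-94212651 on the minus strand.
Eif3f: CTCTCTTTCTCggcaagatggcttc
Eif2s3x: CTTTTCTCTCCgagcaagatggctg

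No other gene of eIF4F was called. Eif4a1, the helicase subunit of eIF4F, read 9.21, 9.08 and 9.08 on the 2MT arrays and 9.13, 9.13 and 9.17 on the saline arrays on its brightest probe set, 10466402, a log2 difference of -0.02 with a limma adjusted p of 0.899. The probe set among its own neighbours, 10387545, read 8.63, 8.49 and 8.61 on the 2MT arrays and 8.61, 8.58 and 8.61 on the saline arrays. The remaining probe set, 10346780, read 8.83, 8.70 and 8.75 on the 2MT arrays and 8.78, 8.77 and 8.79 on the saline arrays. On all 3 the groups overlap. Eif4a2, a second helicase, had a log2 difference of -0.06, with values of 9.06, 9.11 and 9.07 on the 2MT arrays and 9.06, 9.17 and 9.18 on the saline arrays. Eif4h, which stimulates the helicase, read 8.19, 8.04 and 8.13 on the 2MT arrays and 8.29, 8.23 and 8.19 on the saline arrays, a log2 difference of -0.12 with a limma adjusted p of 0.331. Eif4b, the other stimulator, had a log2 difference of 0.01. Of the 5 tested genes of this role, Eif4e was the one called.

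None of the 4E-binding protein genes was called. Eif4ebp1, the best-studied repressor of eIF4E, read 7.18, 7.21 and 7.18 on the 2MT arrays and 6.99, 7.06 and 7.29 on the saline arrays. Those groups overlap, with a log2 difference of 0.08, a 95% confidence interval of -0.09 to 0.24 and a limma adjusted p of 0.676. Eif4ebp2, a second repressor, read 6.68, 6.75 and 6.74 on the 2MT arrays and 6.83, 6.81 and 6.87 on the saline arrays. All 2MT arrays lay below all saline arrays, with a log2 difference of -0.11, an interval of -0.25 to 0.03 and an adjusted p of 0.399. Eif4enif1, the transporter that carries eIF4E into the nucleus, read 6.01, 6.05 and 6.21 on the 2MT arrays and 6.07, 6.26 and 6.06 on the saline arrays, a log2 difference of -0.04. Its second probe set was dim.

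Relatives of the cap-binding and scaffold subunits gave the largest difference among members, without a call. Eif4e1b, a cap-binding relative known mainly from oocytes, read 4.66, 4.95 and 5.29 on the 2MT arrays and 4.64, 4.53 and 4.56 on the saline arrays. The groups lay apart, with a log2 difference of 0.39 and a limma adjusted p of 0.136. This probe set also lies away from the gene's own neighbours, and the one among them was dim, at 4.49, 4.08 and 4.10 on the 2MT arrays and 3.86, 4.19 and 3.93 on the saline arrays. Without 2MT replicate 1 the brighter one was called, at a difference of 0.54 and an adjusted p of 0.0329. It was not called in the other fits that left out 1 array. Eif4g2, an eIF4G relative that lacks the eIF4E binding site, read 10.86, 10.81 and 10.84 on the 2MT arrays and 10.73, 10.73 and 10.71 on the saline arrays. Its groups lay apart by little, a log2 difference of 0.11 with an adjusted p of 0.151. Eif4g3, an eIF4G paralog, read 6.77, 6.83 and 6.72 on the 2MT arrays and 6.86, 6.99 and 6.78 on the saline arrays, a log2 difference of -0.10. Eif4a3, the helicase of the exon junction complex, and the cap-binding relatives Eif4e2 and Eif4e3 had log2 differences of -0.03, 0.06 and -0.02.

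Among the genes of eIF2B, Eif2b2 came closest to a call. Eif2b2, the beta subunit, read 5.62, 5.60 and 5.59 on the 2MT arrays and 6.03, 6.08 and 5.75 on the saline arrays. All 2MT arrays lay below all saline arrays and saline 3 lay between, with a log2 difference of -0.35 ± 0.094 (SE), a 95% confidence interval of -0.55 to -0.15 and a limma adjusted p of 0.0509. It passed the threshold without saline 3 (adjusted p of 0.00884), with quantile normalization (0.0438), cyclic loess (0.0434), the stricter filter on dim genes (0.0465) and array weights (0.0256). It did not pass with median centring, with the changed offset, without the dim filter or without the variance trend. Nor did it pass in the other fits that left out 1 array. In the fit of each bright probe set on its own, the limma adjusted p of Eif2b2 was 0.0919. Its probe set lies among its gene's own neighbours. Eif2b1, the alpha subunit that senses phosphorylated eIF2, differed in the other direction, at 5.66, 5.70 and 5.76 on the 2MT arrays and 5.50, 5.40 and 5.64 on the saline arrays, a log2 difference of 0.19 with an adjusted p of 0.272. Eif2b5, the catalytic subunit, read 6.63, 6.67 and 6.67 on the 2MT arrays and 6.71, 6.79 and 6.88 on the saline arrays, a log2 difference of -0.14 with an adjusted p of 0.334. Both of these also had separate groups. Eif2b3 and Eif2b4 had log2 differences of -0.02 and -0.003.

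The eIF2 genes and the kinases of eIF2 alpha were not called. Eif2s3x, the X-linked gene of the gamma subunit, read 8.64, 8.64 and 8.63 on the 2MT arrays and 8.44, 8.55 and 8.60 on the saline arrays, with separate groups, a log2 difference of 0.11 and a limma adjusted p of 0.346. Its Y-linked counterpart Eif2s3y read 6.99, 7.17 and 7.32 on the 2MT arrays and 7.38, 7.19 and 7.38 on the saline arrays, with overlapping groups and a log2 difference of -0.16. The beta subunit gene Eif2s2 had 2 bright probe sets that differed in sign. The brighter, 10578683, lies elsewhere and read 7.63, 7.65 and 7.86 on the 2MT arrays and 7.63, 7.66 and 7.79 on the saline arrays, a log2 difference of 0.02. The one among its neighbours, 10488806, read 5.96, 6.15 and 6.14 on the 2MT arrays and 6.25, 6.22 and 6.22 on the saline arrays, with separate groups, a log2 difference of -0.15 and an adjusted p of 0.369. Eif2a, a separate factor able to deliver initiator tRNA, read 7.46, 7.47 and 7.35 on the 2MT arrays and 7.16, 7.38 and 7.39 on the saline arrays, a log2 difference of 0.12.

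For all 4 kinase genes the groups overlapped. Eif2ak1, the haem-regulated kinase, read 7.31, 7.46 and 7.44 on the 2MT arrays and 7.50, 7.36 and 7.52 on the saline arrays, a log2 difference of -0.06. Eif2ak2, the kinase activated by double-stranded RNA, read 5.03, 5.06 and 5.09 on the 2MT arrays and 4.87, 5.06 and 5.10 on the saline arrays. Eif2ak4, the amino acid sensor GCN2, read 4.56, 4.63 and 4.49 on the 2MT arrays and 4.98, 4.67 and 4.39 on the saline arrays, the widest spread of the 4. Eif2ak3, the endoplasmic reticulum kinase PERK, had a log2 difference of -0.02. Their limma adjusted p-values lay between 0.709 and 0.947.

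Most eIF3 genes had lower means in 2MT hearts, and none was called. Of 11 tested subunit genes, 9 (81.8%, against 48.1% of all genes) had a lower and 2 a higher mean in 2MT hearts, with a median log2 difference of -0.09, against 0.003 for all genes. Over 18 settings, among them the main fit and fits that left out 1 array, the median stayed between -0.104 and -0.06. Over the same settings the median of all genes moved between -0.003 and 0.008. The groups did not overlap for 5 of them (45.5%, against 21.1% of all genes), 4 lower and 1 higher. Eif3d, which can itself bind the cap of some mRNAs, read 6.65, 6.75 and 6.66 on the 2MT arrays and 6.89, 6.86 and 6.92 on the saline arrays, a log2 difference of -0.20 with a limma adjusted p of 0.112. Eif3e, a further subunit of the scaffold, read 7.97, 8.07 and 8.07 on the 2MT arrays and 8.11, 8.22 and 8.16 on the saline arrays, a log2 difference of -0.13. Eif3l, another subunit of the scaffold, differed in the other direction, at 7.78, 7.77 and 7.82 on the 2MT arrays and 7.69, 7.63 and 7.64 on the saline arrays, a log2 difference of 0.14. Both had separate groups, and their adjusted p-values were 0.275 and 0.224.

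The other eIF3 genes had smaller differences. Eif3a, Eif3f, Eif3i and Eif3k had log2 differences of -0.09, -0.10, -0.10 and -0.11, and Eif3b, Eif3c and Eif3h of -0.02, -0.03 and -0.04. Eif3m had 2 bright probe sets that gave like values. The one among its own neighbours, 10485635, read 7.79, 7.84 and 7.94 on the 2MT arrays and 7.67, 7.84 and 7.79 on the saline arrays, a log2 difference of 0.09. The other, 10353475, read 7.73, 7.70 and 7.83 on the 2MT arrays and 7.62, 7.85 and 7.68 on the saline arrays, a log2 difference of 0.04.

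**Figure D3:**
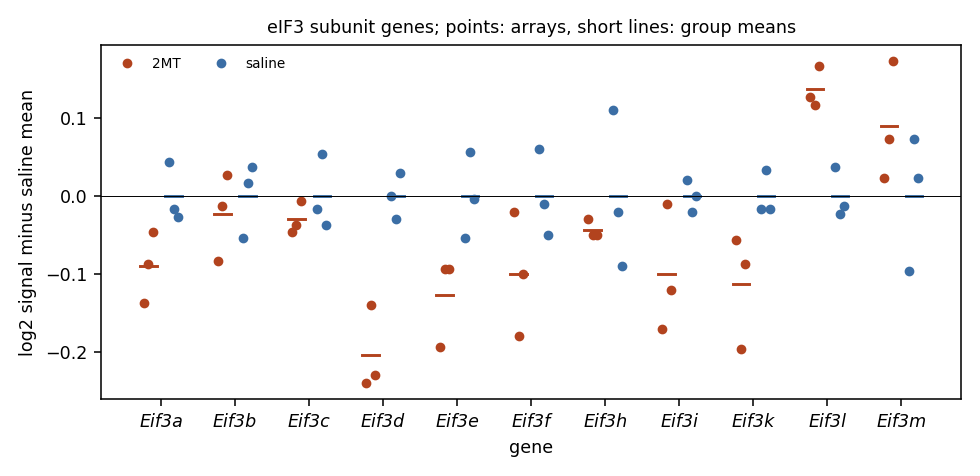
Log2 signal of the 11 eIF3 subunit genes minus each gene's saline mean, with a point per array, 2MT left of saline, and short lines for group means. The 2MT means lie below the saline means for 9 genes, furthest for Eif3d at -0.20, and above them for Eif3l and Eif3m.

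Factors of start codon selection were not called either. Eif1a, an autosomal copy of the eIF1A gene, read 5.21, 5.21 and 5.51 on the 2MT arrays and 5.75, 5.43 and 5.54 on the saline arrays, with overlapping groups, a log2 difference of -0.26 and a limma adjusted p of 0.224. Its X-linked relative Eif1ax read 7.49, 7.52 and 7.54 on the 2MT arrays and 7.37, 7.36 and 7.35 on the saline arrays. Those groups lay clearly apart, with a log2 difference of 0.16 and an adjusted p of 0.167. Eif1b, a relative of Eif1, read 8.15, 7.95 and 8.04 on the 2MT arrays and 7.88, 7.94 and 7.93 on the saline arrays, a log2 difference of 0.13 with an adjusted p of 0.302. Eif5, which makes eIF2 hydrolyse its GTP, and Eif5b, which joins the ribosomal subunits, had log2 differences of 0.06 and -0.01. Eif1ad, a relative of the eIF1A genes, and Eif2d, a factor that can deliver tRNA without eIF2, had 0.08 and -0.04.

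Eif5a2, the paralog of Eif5a, read 4.09, 4.38 and 4.42 on the 2MT arrays and 4.65, 4.44 and 4.18 on the saline arrays, with overlapping groups and a log2 difference of -0.13. Its means, 4.30 in 2MT hearts and 4.42 in saline hearts, lay on either side of the 4.345 that defines bright. Eif6, which keeps the large ribosomal subunit from joining too early, read 5.79, 5.79 and 5.81 on the 2MT arrays and 5.86, 5.86 and 5.73 on the saline arrays, a log2 difference of -0.02. For neither did the groups lie apart. Of the 10 probe sets with several symbols that include an Eif symbol, 8 were bright. None of these was called in limma or had an unadjusted p under 0.05, and the smallest adjusted p was 0.752.

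**Figure D4:**
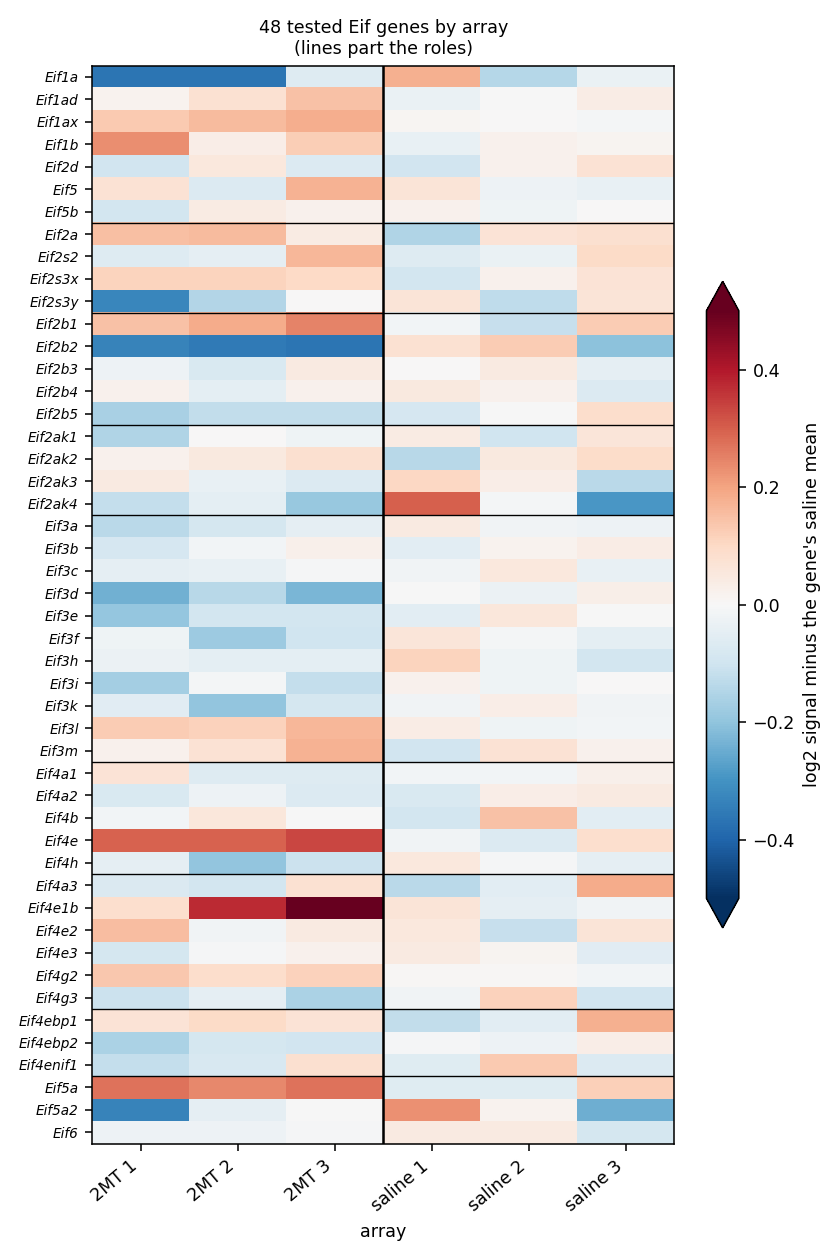
Log2 signal of each of the 48 tested Eif genes (rows, by role) on each of the 6 arrays (columns, 2MT left of saline), minus the gene's saline mean, with red for higher and blue for lower. Eif4e and Eif5a are red on all 3 2MT arrays, Eif2b2 is blue on them and on saline 3, and Eif4e1b is reddest on 2MT 3.

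Genes that work with these factors were followed in lists of 4 kinds. Of 28 tested genes of eIF4E control and mTORC1 signalling (32 listed), 1 rose and none fell, with a median log2 difference of -0.04. In this list 5 had an unadjusted limma p under 0.05 (17.9%, against 17.8% of all genes). The gene that rose was Rragd, a Rag GTPase that recruits mTORC1 to the lysosome. It read 8.00, 7.86 and 7.97 on the 2MT arrays and 7.45, 7.67 and 7.74 on the saline arrays, with separate groups, a log2 difference of 0.32 ± 0.076 (SE) and a limma adjusted p of 0.0255. The call was lost, at adjusted p-values between 0.0524 and 0.120, without 2MT 1, 2MT 3, saline 1 or saline 2, and at 0.0964 without the variance trend. The next smallest p-values in that list belonged to Slc3a2, a subunit of amino acid transporters, at a log2 difference of -0.22 with an adjusted p of 0.0749, and Flcn, a regulator of Rag GTPases, at 0.24 with 0.133.

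Of 14 tested genes of eIF2 phosphatases and the integrated stress response (18 listed), none was called in limma, 4 had an unadjusted p under 0.05 (28.6%, against 17.8% of all genes) and the median log2 difference was 0.03. Ppp1r15a, the stress-induced subunit that directs a phosphatase to eIF2 alpha, read 4.45, 4.59 and 4.96 on the 2MT arrays and 5.40, 4.98 and 5.07 on the saline arrays. The groups lay just apart, with a log2 difference of -0.48 and a limma adjusted p of 0.0682. Without 2MT 3 it was called, at -0.63 and an adjusted p of 0.0333. In the other fits that left out 1 array its limma adjusted p was 0.0719 to 0.256. Impact, an inhibitor of GCN2, had a log2 difference of -0.25 with an adjusted p of 0.0973, and was called without saline 3, at -0.32 and 0.0305. Its limma adjusted p was 0.163 to 0.309 in the other such fits. Ddit3, the stress-induced factor CHOP, had a log2 difference of 0.31 with an adjusted p of 0.188, and was called without saline 2, at 0.47 and 0.0321. For Ddit3 the other such fits gave limma adjusted p-values of 0.323 to 0.416, and without saline 3 the difference was 0.16.

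Of 23 tested other factors of initiation and mRNA ends (26 listed), none was called in limma, 2 had an unadjusted p under 0.05 (8.70%) and the median was -0.03. Mcts1, a factor of reinitiation, had a log2 difference of -0.37 with a limma adjusted p of 0.109. Dhx29, a helicase of the small subunit, had -0.21 with 0.215, and Paip2, a repressor of the poly(A)-binding protein, -0.10 with 0.293. Of 17 tested elongation, termination and recycling factors (19 listed), none was called in limma, 1 had an unadjusted p under 0.05 (5.88%) and the median was -0.06. That gene was Eef1a2, the muscle form of elongation factor 1A, which read 10.56 on all 3 2MT arrays and 10.69, 10.71 and 10.60 on the saline arrays, a log2 difference of -0.11 with an adjusted p of 0.224. In these lists, as among the Eif genes, the counts called were no higher a share than the 4.63% of all genes tested.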

How the data were processed

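RNA of 6 left ventricle samples was hybridised to Affymetrix arrays from 100 ng of total RNA, per the labels' protocols. The log2 signals, 1 per probe set and array, were deposited by the authors. The log2 scale was read from their range (0.51 to 13.5), and array medians were 4.32 to 4.37. MAS5 is named in the submitters' processing notes with no version or role, and other normalization is not given in the sources used here. These values were used as deposited, without scaling. With 3 arrays a group, their number limits precision. Detection calls were not used, hence how far a probe set lies above background is unknown, and differences of dim genes may be understated.

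Of 28944 probe sets, 21789 had 1 symbol in the platform annotation, 1621 several and 5534 none. The probe set with the highest mean represented each gene. The test was limma 3.58.1 under R 4.3.3 (lmFit, eBayes with a variance trend, two-sided, no term but group). Its p-values were adjusted by Benjamini-Hochberg over all 10547 genes or all 14480 bright probe sets. The procedure was tested on simulated data with 50 genes changed at each size. It recovered 32% of genes changed 1.25-fold, 88% at 1.5-fold and 98% at 2-fold, so a small difference can go uncalled. Named are called members, every 4E-binding protein gene, every bright probe set of a gene with at least 2, up to 3 more of each role with the smallest p, and called genes with up to 3 more of each companion list. Other members are given by their difference alone. The members, lists and rule were chosen with earlier results of these data known, and the check of probe set places after the values were seen. Alternatives changed normalization, dim filter, offset, probe set choice, variance model, weights, replicate block, arrays and threshold. Plots were made in Python 3.11.15 with matplotlib 3.10.9.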

Additional observations from a re-analysis of the deposited data

How the results depend on the processing

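The count of all genes called, 488 as reported, was 292 without the variance trend, 262 to 648 with 1 array left out, 768 at an adjusted p under 0.1 and 1873 at an unadjusted p under 0.05. The count of Eif genes called, 2 as reported, was 0 when probe sets of a gene were averaged and with probe sets among a gene's own neighbours, 1 without the variance trend, 11 at an unadjusted p under 0.05, and 1 to 3 with 1 array left out. The count of Eif probe sets called, also 2, was 1 with quantile normalization and without the dim filter, 0 without the variance trend, 10 at an unadjusted p under 0.05 and 0 to 3 with 1 array left out. The count of companion genes called, 1 as reported, was 2 without the dim filter, 0 without the variance trend, 12 at an unadjusted p under 0.05, 4 at an adjusted p under 0.1 and 0 to 2 with 1 array left out. Whether the replicate numbers pair the samples is not known. Same-numbered arrays correlated only weakly in their deviations, at 0.070, 0.040 and 0.022, but 5 of 6 arrays correlated best with their own number. With the replicate number as a block, 586 genes, 3 Eif genes, 1 Eif probe set and 2 companion genes were called. The Eif gene added was Eif2b2 (adjusted p of 0.0387) and the companion gene Mcts1 (0.0413). Of 536 repeats of the log2 differences of 30 named Eif genes, 508 kept their direction and side of the threshold and 11 changed sign, all of genes that were not called. Eif2s2 changed from 0.02 to -0.063 with the mean of its probe sets and to -0.15 with its own-neighbour probe set. With 1 array left out the differences ran from -0.02 to 0.10 for Eif2ak2, -0.27 to 0.03 for Eif2ak4, -0.053 to 0.068 for Eif2s2, -0.063 to 0.0017 for Eif4a1, -0.10 to 0.025 for Eif4enif1 and -0.063 to 0.0017 for Eif6. Eif4e lost its call with the mean of its probe sets (adjusted p of 0.492), and Eif5a with that mean (0.182) and without the variance trend (0.107). Where an alternative ended a call, the cause was not tested, except that the probe set settings replace or average the called probe set. Fits without an array kept the probe sets and filter set on all 6.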
